A study of Mus musculus with 6 samples.

Results

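The genes described here are *Sqle*, *Cyp51*, *Insig1*, *Insig2*, *Srebf1*, *Srebf2*, *Scd1* and *Scd2*, 8 of the 55450 genes of the GENCODE M21 basic set on mm10, chosen by name for their part in making sterols and monounsaturated fatty acids. Accessible regions were taken from the gene body and 20 kb on each side of it, and a peak within 2000 bp of a start site of the basic set was called a promoter peak. These windows held 26 of 41308 consensus peaks, and 21 of them had a peak in each of the 6 libraries. GL261, a mouse glioma cell line that here stably carries the GFP plasmid pEGFP-N1 in every group, was kept at 21% O2, or at 1% or <0.1% O2 for 16 h. Each condition had 2 libraries, and nothing in the labels says that they came from separate cultures, so the p-values measure the spread between libraries. Promoter peaks of all 8 glial and glioma markers examined (*Gfap*, *Olig2*, *Sox2*, *Nes*, *Vim*, *S100b*, *Cd44* and *Slc1a3*) were present in 6 of 6 libraries. No library had one at the 4 immune genes, at *Epcam*, *Cdh1* or *Alb*, or at the endothelial gene *Cdh5*, while *Pecam1* had one in 5 libraries.

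Cholesterol synthesis consumes molecular oxygen at several steps. Squalene monooxygenase, encoded by *Sqle*, and lanosterol 14-alpha-demethylase, encoded by *Cyp51*, carry out early ones, and the stearoyl-CoA desaturases *Scd1* and *Scd2* use oxygen to place a double bond in saturated fatty acids. SREBP transcription factors, encoded by *Srebf1* and *Srebf2*, switch on these enzymes when sterols are scarce, and the INSIG proteins of *Insig1* and *Insig2* hold SREBP in the endoplasmic reticulum and promote the breakdown of HMG-CoA reductase when sterols are plentiful.

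In ATACseq a transposase cuts open DNA, so the number of fragments stacked over the highest point of a peak, its summit pileup, reflects how accessible the site is. Pileups were recovered from the deposited peak lists and scaled so that every library had the same median. Genome coverage lay between 2.16 and 3.35 fragments, and both libraries of each hypoxic condition were deeper than both normoxic ones. A peak was called changed by limma at an adjusted p-value under 0.05 and a log2 fold change of at least 0.6 in either direction. Log2 fold changes are given ± SE and mean pileups ± SD, with n = 2 per condition. All adjusted p-values are from limma over the 28432 peaks with a peak in every library. Across all promoter peaks the median log2 fold change was -0.07 at 1% O2 and -0.19 at <0.1% O2, so a small fall at <0.1% O2 was the usual value for a promoter.

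All 8 genes had 1 promoter peak in each library. The order by mean scaled pileup was *Sqle*, *Scd1*, *Insig1*, *Srebf2*, *Scd2*, *Cyp51*, *Insig2* and *Srebf1*, running from the 99.6th percentile of promoter peaks for *Sqle* to the 61.6th for *Srebf1*. The ranges over the 6 libraries overlapped between neighbours in this order, except that the lowest *Sqle* value was above the highest of *Scd1* and the lowest *Scd2* value above the highest of *Cyp51*. Compared within single libraries, *Scd1* was also above *Insig1* in all 6. At 1% O2, 1 of the 8 promoter peaks was called higher, *Srebf1*, where 3.92% of all promoter peaks were, and 0 were called lower, where 7.29% were. An unadjusted p under 0.05 in either direction was reached by 4 of the 8, against 44.0% of all promoter peaks, and a ranking of fold, given further on, called 1 lower. At <0.1% O2, 1 of 8 was called lower, *Cyp51*, against 19.5% of all promoter peaks, and 0 were called higher, against 4.53%, with 4 of 8 again at an unadjusted p under 0.05, against 58.4%. The median log2 fold change of the 8 was -0.07 and -0.08 in these comparisons. With genome coverage scaling it was 0.10 at 1% O2 and -0.24 at <0.1% O2, beside 0.10 and -0.36 over all promoter peaks, so its direction at 1% O2 depends on the scaling. Between <0.1% and 1% O2 limma called 0 of 8 lower or higher, where 4.77% and 1.35% of promoter peaks were called, and 2 of 8 had an unadjusted p under 0.05, against 36.3%. Without the minimum size 1 of 8 was lower at 1% O2, against 22.0%, and 1 higher, against 12.9%. At <0.1% O2 3 were then lower, against 38.5%, and 1 higher, against 13.8%, and between the hypoxic levels 2 were lower, against 18.5%, and 0 higher, against 4.97%. The plot of promoter pileups shows the libraries behind these values.

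**Figure D1:**
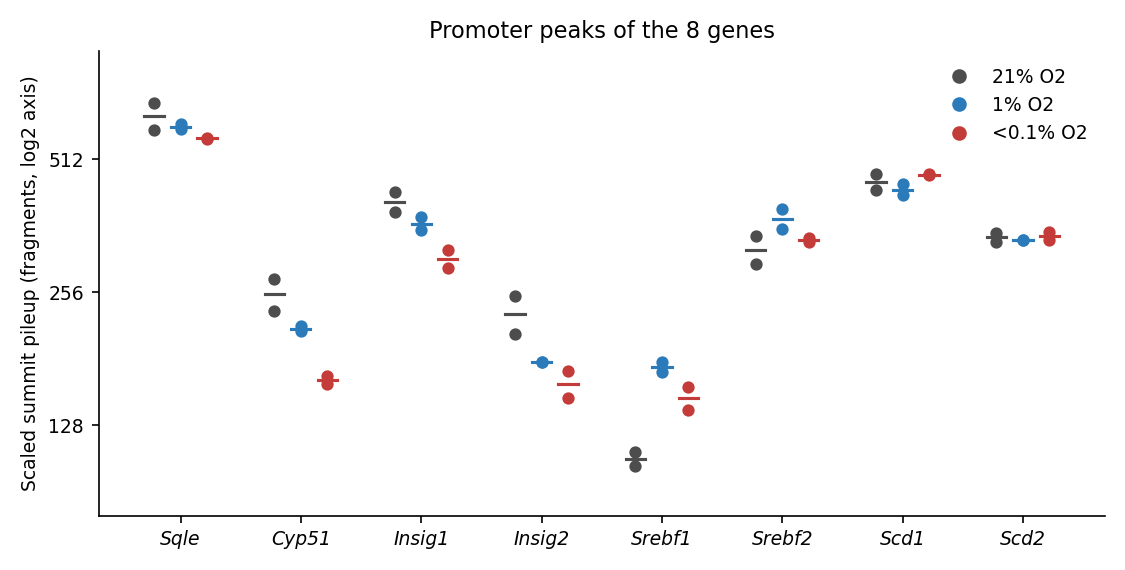
Scaled summit pileup, in fragments on a log2 axis, of the promoter peak of each gene. Points are single libraries and bars are means of 2 libraries at 21% O2 (grey), 1% O2 (blue) and <0.1% O2 (red). *Cyp51* steps down from 253 to 162, *Srebf1* is lowest at 21% O2, and *Scd2* stays between 332 and 350.

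*Sqle*, the enzyme that makes squalene epoxide, had the tallest promoter peak of the 8 genes (chr15:59314477-59315533). Over the 6 libraries its summit lay from -196 to -123 bp relative to the nearest start site. The scaled pileup was 596 and 687 at 21% O2, 614 and 598 at 1% O2, then 569 and 573 at <0.1% O2. The <0.1% O2 libraries lay below the others, but the log2 fold changes of -0.08 ± 0.09 (SE, n = 2 per condition) at 1% O2 and -0.16 ± 0.09 at <0.1% O2 did not pass the test (adjusted p = 0.53 and 0.14, limma). The 95% intervals were -0.26 to 0.11 and -0.35 to 0.02. The 300 bp around the summit are shown because this GC-rich promoter stayed nearly level. Capitals here and in the other windows mark motifs on either strand, the hypoxia response element core (ACGTG or GCGTG), the CCAAT box (CCAAT), the GC box (GGGCGG), the E-box (CACGTG) and the sterol response element (TCACNCCAC). The sequence is of GRCm38.p6, chr15:59314747-59315046, plus strand.
*Sqle* promoter: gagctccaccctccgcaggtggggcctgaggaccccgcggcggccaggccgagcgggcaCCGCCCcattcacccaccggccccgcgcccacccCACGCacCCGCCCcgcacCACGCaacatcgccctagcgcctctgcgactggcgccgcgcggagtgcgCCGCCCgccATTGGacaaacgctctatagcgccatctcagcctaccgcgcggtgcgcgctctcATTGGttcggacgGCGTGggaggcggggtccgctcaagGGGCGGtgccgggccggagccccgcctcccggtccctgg

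*Cyp51*, which removes the 14-alpha methyl group of lanosterol, was the one promoter of the 8 called lower at <0.1% O2 (chr5:4103736-4105049, over the untranslated part of exon 1). Its scaled pileup was 274 and 233 at 21% O2, 215 and 209 at 1% O2, then 159 and 166 at <0.1% O2. On this scaling the 3 conditions did not overlap, and pileups were lower at each lower oxygen level. With genome coverage scaling the log2 fold change against 21% O2 was -0.08 at 1% O2 and -0.80 at <0.1% O2, so the step at 1% O2 depends on the scaling. The log2 fold change was -0.25 ± 0.11 at 1% O2 (adjusted p = 0.065, limma) and -0.64 ± 0.11 at <0.1% O2 (adjusted p = 8.7e-06, limma), with an interval from -0.85 to -0.42. Between <0.1% and 1% O2 it was -0.38 ± 0.11 (adjusted p = 0.0085, limma), under the size needed for a call. The call at <0.1% O2 was lost without 21% O2 replicate 1, at -0.52, with quantile normalization, at -0.57, when fold was fitted, at -0.34, and after a GC trend was subtracted, at -0.38, and the part of GC content in the fall was not tested. Within a library, where no scaling enters, the *Cyp51* pileup was 0.460 and 0.339 of the *Sqle* pileup at 21% O2, 0.349 and 0.350 at 1% O2, then 0.280 and 0.289 at <0.1% O2. Both <0.1% O2 ratios lay below the other 4, which with 2 libraries against 2 gives p = 0.33 in a two-sided exact permutation test, the smallest it allows. The window is shown because it carries the called fall (GRCm38.p6, chr5:4104482-4104781, minus strand).
*Cyp51* promoter: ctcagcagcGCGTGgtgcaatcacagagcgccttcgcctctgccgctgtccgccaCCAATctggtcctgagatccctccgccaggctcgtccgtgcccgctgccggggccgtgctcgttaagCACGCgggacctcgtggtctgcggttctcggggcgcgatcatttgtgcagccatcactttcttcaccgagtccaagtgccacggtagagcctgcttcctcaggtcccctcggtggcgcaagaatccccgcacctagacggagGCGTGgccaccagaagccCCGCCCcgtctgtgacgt

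Both INSIG promoters were lower at <0.1% O2, at a size below that of a call. *Insig1*, a SREBP target whose product restrains SREBP in turn, shares its peak (chr5:28070403-28072166) with the start of *Gm26608*. Its scaled pileup was 389 and 430 at 21% O2, 378 and 353 at 1% O2, then 291 and 319 at <0.1% O2. Values at <0.1% O2 were below all others, with a log2 fold change of -0.43 ± 0.10 against 21% O2 (adjusted p = 0.0004, limma). At 1% O2 it was -0.16 ± 0.10 (adjusted p = 0.19, limma). *Insig2*, known as a hypoxia-inducible INSIG gene in other cells, shares its peak (chr1:121327380-121328442) with *Gm37174*. Its pileup was 206 and 251 at 21% O2, 178 and 178 at 1% O2, then 148 and 170 at <0.1% O2. The log2 fold change was -0.35 ± 0.11 at 1% O2 (adjusted p = 0.015, limma) and -0.52 ± 0.11 at <0.1% O2 (adjusted p = 0.0003, limma), and both hypoxic conditions lay below the normoxic libraries. The *Insig2* change at 1% O2 was smaller with genome coverage scaling, at -0.18, with fold fitted, at -0.20, and without 21% O2 replicate 2, at -0.21. The *Insig2* change at <0.1% O2 reached the size of a call with genome coverage scaling, at -0.69, without 21% O2 replicate 1, at -0.66, and without <0.1% O2 replicate 2, at -0.62. After a GC trend was subtracted the <0.1% O2 changes were -0.19 for *Insig1* and -0.30 for *Insig2*, and with fold fitted they were 0.05 and -0.21.

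*Insig2* has 5 start sites in the basic set. The peak covered 4 of them, at positions 121327678 to 121328024 of chromosome 1, while the most upstream site, at 121332589, was 4126 bp from the nearest peak of any library. Accessibility was therefore listed at the downstream starts in all 3 conditions and at the upstream start in none. The window over the downstream starts is shown because it holds no CCAAT box but 3 GCGTG cores (GRCm38.p6, chr1:121327781-121328080, minus strand).
*Insig2* promoter: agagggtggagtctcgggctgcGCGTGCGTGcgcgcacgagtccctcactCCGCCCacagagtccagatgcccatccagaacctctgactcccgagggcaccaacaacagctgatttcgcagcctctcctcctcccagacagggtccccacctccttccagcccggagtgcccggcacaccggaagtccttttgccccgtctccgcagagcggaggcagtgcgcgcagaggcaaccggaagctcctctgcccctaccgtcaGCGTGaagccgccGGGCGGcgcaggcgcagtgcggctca

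*Srebf1*, which encodes SREBP-1, had the only called rise among the 8 promoters. The peak over the basic start site (chr11:60219769-60220903, summit in exon 1) had a scaled pileup of 104 and 111 at 21% O2, 178 and 169 at 1% O2, then 139 and 156 at <0.1% O2. All 4 hypoxic libraries were above both normoxic ones. The log2 fold change was 0.69 ± 0.12 at 1% O2 (adjusted p = 2.5e-05, limma) and 0.46 ± 0.12 at <0.1% O2 (adjusted p = 0.0021, limma), the second below the size of a call. The difference between the hypoxic levels, -0.23 ± 0.12, did not pass the test (adjusted p = 0.16, limma). When the fold over local background was fitted in place of the pileup, the change at 1% O2 was 0.20 and no longer called, and at <0.1% O2 it was 0.18. That background, in multiples of the genome coverage, was 3.98 and 4.12 at 21% O2, 6.08 and 5.29 at 1% O2, then 4.60 and 3.99 at <0.1% O2. It comes from the same library's fragments and is not a separate control.

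A second *Srebf1* peak (chr11:60210194-60210867) lay 10093 bp into the gene, in an intron of the basic models and over start sites 60210392 and 60210465 of the full annotation. *Srebf1* is known to give SREBP-1a and SREBP-1c from different first exons, and the files do not say which product either start makes. The scaled pileup was 102 and 106 at 21% O2, 171 and 175 at 1% O2, then 103 and 100 at <0.1% O2. It stood higher in both 1% O2 libraries alone, by 0.73 ± 0.13 against 21% O2 (adjusted p = 1.6e-05, limma), and at <0.1% O2 was lower than at 1% O2 by -0.77 ± 0.13 (adjusted p = 2.7e-05, limma). Against 21% O2 the <0.1% O2 change was -0.03, with an interval from -0.29 to 0.22. The fall from 1% to <0.1% O2 was -0.54 after a GC trend was subtracted and -0.17 when fold was fitted, neither a call, and the rise at 1% O2 was 0.41 when fold was fitted, also not called. Against 21% O2 the <0.1% O2 change was 0.24 with fold fitted and 0.25 after the GC trend was subtracted. By percentile rank of fold among the 28432 peaks, the internal start stood at 42.4 and 51.6 at 21% O2, 75.6 and 79.2 at 1% O2, then 65.0 and 63.4 at <0.1% O2, so by this measure both <0.1% O2 libraries were above both normoxic ones.

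Both *Srebf1* starts were also compared within each library. The promoter pileup was 1.01 and 1.05 times that of the internal start at 21% O2, 1.04 and 0.965 times at 1% O2, then 1.35 and 1.56 times at <0.1% O2. Both <0.1% O2 ratios exceeded the other 4, a log2 difference of 0.49 from 21% O2 and 0.53 from 1% O2, with p = 0.33 in each two-sided exact permutation test, the smallest that 2 against 2 allows. With fold in place of pileup these log2 differences were -0.06 and 0.15, and after a GC trend was subtracted 0.25 and 0.39, alternatives that, for this and the other ratios, were chosen after seeing the data. The ratios were not among the planned tests either. Each includes a peak that limma called, so none is separate evidence of that peak's change. Both windows are shown because each carries a called rise at 1% O2 (GRCm38.p6, chr11:60220363-60220662 and chr11:60210361-60210660, minus strand).
*Srebf1* promoter: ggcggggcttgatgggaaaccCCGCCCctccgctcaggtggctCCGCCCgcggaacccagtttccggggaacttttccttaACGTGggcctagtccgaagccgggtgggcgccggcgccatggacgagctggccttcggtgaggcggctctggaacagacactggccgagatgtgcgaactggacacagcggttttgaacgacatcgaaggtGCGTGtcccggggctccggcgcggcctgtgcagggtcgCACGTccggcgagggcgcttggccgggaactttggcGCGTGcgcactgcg
*Srebf1* internal start: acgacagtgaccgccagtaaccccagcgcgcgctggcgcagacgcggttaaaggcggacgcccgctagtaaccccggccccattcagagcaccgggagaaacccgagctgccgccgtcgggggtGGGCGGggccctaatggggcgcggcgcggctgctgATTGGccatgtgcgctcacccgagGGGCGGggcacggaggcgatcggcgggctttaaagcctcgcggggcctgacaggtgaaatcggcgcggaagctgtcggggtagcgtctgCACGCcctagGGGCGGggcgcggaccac

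The other *Srebf1* peaks were weaker. A peak at -2422 bp from the basic start (chr11:60222758-60223191), close to the most upstream start of the full annotation, had pileups of 69.5 and 57.3 at 21% O2, 69.7 and 78.6 at 1% O2, then 55.1 and 47.5 at <0.1% O2. Neither change against 21% O2 passed the test, 0.23 at 1% O2 (adjusted p = 0.33, limma) and -0.30 at <0.1% O2 (adjusted p = 0.16, limma), while <0.1% against 1% O2 was -0.53 ± 0.18 (adjusted p = 0.026, limma). A peak in the untranslated part of the last exon, also at *Mir6921*, held between 21.6 and 36.2 fragments and passed no test.

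**Figure D2:**
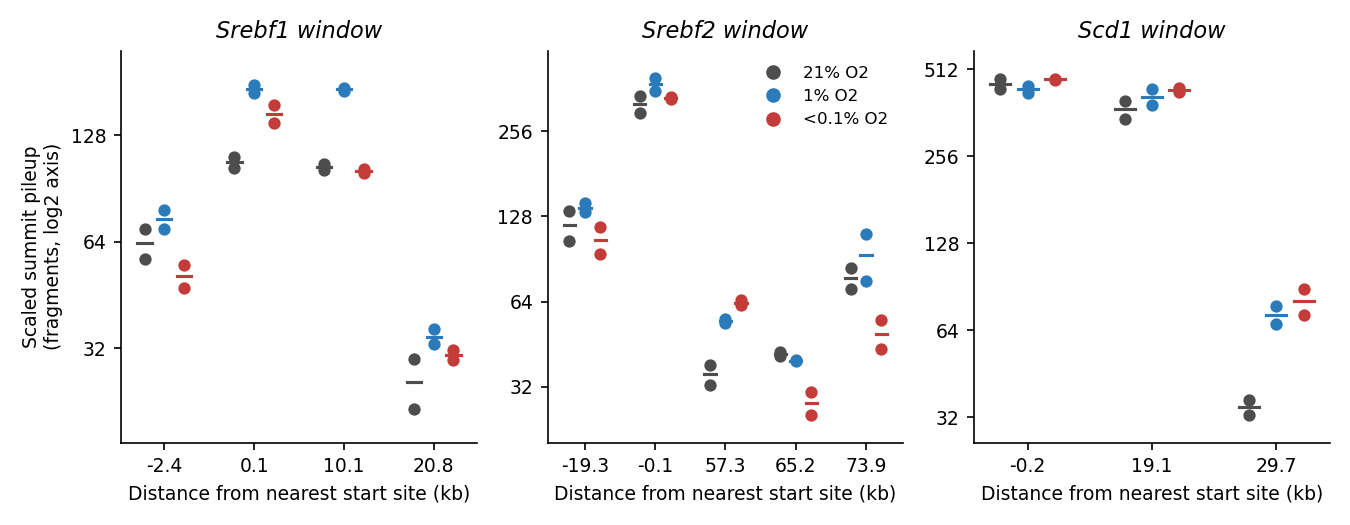
Scaled summit pileup, in fragments on a log2 axis, of the peaks found in all 6 libraries in the windows of *Srebf1*, *Srebf2* and *Scd1*, ordered by distance in kb from the nearest basic start site of the gene. Points are libraries and bars are means. The *Srebf1* internal peak at 10.1 kb is higher at 1% O2 alone, and the *Scd1* peak at 29.7 kb is higher in all hypoxic libraries.

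*Srebf2*, which encodes SREBP-2, the main driver of cholesterol synthesis genes, kept a tall promoter peak (chr15:82146635-82147791). Its scaled pileup was 296 and 343 at 21% O2, 395 and 357 at 1% O2, then 333 and 340 at <0.1% O2. The log2 fold change was 0.24 ± 0.10 at 1% O2 (adjusted p = 0.056, limma) and 0.08 ± 0.10 at <0.1% O2 (adjusted p = 0.54, limma), with intervals from 0.04 to 0.43 and from -0.12 to 0.28. Within a library the *Srebf1* promoter pileup was 0.349 and 0.325 of the *Srebf2* pileup at 21% O2, and between 0.417 and 0.473 in the 4 hypoxic libraries. These were log2 differences of 0.45 at 1% O2 and 0.38 at <0.1% O2, or 0.21 and 0.15 with fold in place of pileup, and 0.35 and 0.11 after a GC trend was subtracted.

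Away from promoters of the basic set, 7 window peaks of the 8 genes could be tested. They include the *Srebf1* peaks at 10093 bp and -2422 bp, which are promoter peaks by the full annotation. The peak at 10093 bp is among those called higher at 1% O2 and those called lower between the hypoxic levels. At 1% O2, 3 of the 7 were called higher, where 11.2% of all peaks away from promoters were, and 0 lower, where 10.0% were. These 3 were also the ones at an unadjusted p under 0.05, against 46.4%. At <0.1% O2, 2 of 7 were called higher, against 19.6%, and 1 lower, against 5.36%, with 4 of 7 at an unadjusted p under 0.05, against 50.2%. Between <0.1% and 1% O2, 2 of 7 were called lower, against 1.03%, and 0 higher, against 9.64%, with 3 of the 7 at an unadjusted p under 0.05, against 35.2%. Of 6 further window peaks that lay at promoters of other genes, limma called 0 at either hypoxic level, where 7.29% of all promoter peaks were called lower and 3.92% higher at 1% O2 and 19.5% and 4.53% at <0.1% O2. An unadjusted p under 0.05 was reached by 1 of the 6 at 1% O2, against 44.0%, and by 3 at <0.1% O2, against 58.4%. Without the minimum size 1 was lower at 1% O2, against 22.0%, and at <0.1% O2 1 was lower, against 38.5%, and 2 higher, against 13.8%. Between <0.1% and 1% O2 limma called 0 of the 6, where 4.77% of promoter peaks were called lower and 1.35% higher. There 4 of the 6 had an unadjusted p under 0.05, against 36.3%. Without the minimum size 1 was then lower, against 18.5%, and 2 higher, against 4.97%.

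*Scd1*, the desaturase that makes oleate, had the largest changes of these, at a peak 16449 bp beyond the 3′ end of the gene (chr19:44377752-44378405). Its scaled pileup was 32.6 and 36.8 at 21% O2, 77.7 and 67.1 at 1% O2, then 72.5 and 88.6 at <0.1% O2. Every hypoxic library was above both normoxic ones, with a log2 fold change of 1.06 ± 0.18 at 1% O2 (adjusted p = 1.9e-05, limma) and 1.21 ± 0.18 at <0.1% O2 (adjusted p = 1.3e-06, limma). The hypoxic levels differed by 0.15, with an interval from -0.22 to 0.52. When fold was fitted the changes were 0.48 and 0.54 and not called, and the local background was 1.92 and 2.13 times the genome coverage at 21% O2 and between 2.84 and 3.32 times under hypoxia. The window is shown because it carries this rise (GRCm38.p6, chr19:44377856-44378155, minus strand, that of *Scd1*), and of the motifs it holds 1 CCAAT box.
*Scd1* downstream peak: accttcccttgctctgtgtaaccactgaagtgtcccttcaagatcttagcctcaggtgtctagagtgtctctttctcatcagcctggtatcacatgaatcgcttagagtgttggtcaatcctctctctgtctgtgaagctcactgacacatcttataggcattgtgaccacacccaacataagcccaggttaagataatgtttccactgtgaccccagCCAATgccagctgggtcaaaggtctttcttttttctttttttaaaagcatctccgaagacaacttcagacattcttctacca

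The *Scd1* promoter (chr19:44407386-44408840) did not follow. Its pileup was 437 and 473 at 21% O2, 424 and 449 at 1% O2, then 470 and 475 at <0.1% O2, and the conditions overlapped with the normoxic libraries. The log2 fold changes were -0.06 ± 0.09 and 0.06 ± 0.09, with intervals from -0.24 to 0.13 and from -0.13 to 0.24. The downstream peak was 0.0747 and 0.0778 of the promoter pileup at 21% O2 and between 0.149 and 0.187 of it in the hypoxic libraries, higher in all 4 (exact permutation p = 0.33 for each hypoxic level, two-sided). The log2 difference was 1.12 at 1% O2 and 1.15 at <0.1% O2, or 0.58 and 0.52 with fold in place of pileup. A further *Scd1* peak 5830 bp beyond the gene (chr19:44388049-44390156) had pileups from 345 to 440 and passed no test.

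*Scd2*, the desaturase form prominent in brain, gave the steadiest promoter (chr19:44293404-44295978). Its pileup was 332 and 349 at 21% O2, 336 and 336 at 1% O2, then 350 and 337 at <0.1% O2. The log2 fold changes were -0.02 ± 0.09 and 0.01 ± 0.09, with intervals from -0.21 to 0.17 and from -0.18 to 0.20. A peak at -9338 bp (chr19:44283929-44284990) was taller than the promoter, with pileups of 424 and 495 at 21% O2, 499 and 478 at 1% O2, then 496 and 541 at <0.1% O2, and passed no test. Of 3 peaks over *AC123853.1*, beyond the 3′ end of *Scd2*, 2 were higher at <0.1% than at 1% O2 by 0.47 ± 0.09 (adjusted p = 0.00038, limma) and 0.49 ± 0.10 (adjusted p = 0.00046, limma), both below the size of a call. With genome coverage scaling these 2 changes were only 0.14 and 0.16. The 2 peaks stood on high local backgrounds, from 23.5 to 29.2 times the genome coverage. A narrow peak at -12732 bp (chr19:44280833-44281061) was listed at 0 of 2 libraries at 21% O2, 2 of 2 at 1% O2 and 1 of 2 at <0.1% O2. Its raw pileups of 153 to 177 stood only 3.92 to 4.29 times above a high local background.

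In the *Srebf2* window, a peak in an untranslated region near the 3′ end of the gene (chr15:82204181-82205105) had pileups of 38.3 and 32.4 at 21% O2, 55.3 and 53.9 at 1% O2, then 64.7 and 62.2 at <0.1% O2. The conditions did not overlap, and the log2 fold change was 0.63 ± 0.19 at 1% O2 (adjusted p = 0.0093, limma) and 0.85 ± 0.19 at <0.1% O2 (adjusted p = 0.00042, limma). The first of these calls was lost without 21% O2 replicate 2, at 0.51, without 1% O2 replicate 1 at 0.61, with quantile normalization at 0.56, with a pseudocount of 5 at 0.54 and after a GC trend was subtracted at 0.56, and it turned to -0.05 when fold was fitted. That fit also ended the call at <0.1% O2, at 0.43.

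Another peak, 15756 bp beyond *Srebf2* (chr15:82220849-82221715), moved the other way. Its pileup was 70.9 and 84.4 at 21% O2, 111 and 75.9 at 1% O2, then 55.1 and 43.3 at <0.1% O2. Both <0.1% O2 libraries were below all others, by -0.66 ± 0.18 against 21% O2 (adjusted p = 0.0027, limma) and by -0.91 ± 0.18 against 1% O2 (adjusted p = 0.00031, limma). The 1% O2 libraries were far apart. The call against 21% O2 was lost without 21% O2 replicate 2, at -0.54, and without <0.1% O2 replicate 2, at -0.49, and that against 1% O2 without 1% O2 replicate 1, at -0.64. When fold was fitted both were -0.44 and not called.

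Other *Srebf2* window peaks appeared or vanished. An intronic peak 17542 bp into the gene (chr15:82164324-82164840) was listed in neither 21% O2 library and in all 4 hypoxic ones, with raw pileups of 35 and 42 at 1% O2, then 42 and 38 at <0.1% O2. Absence from a list says only that the site missed the threshold there, and the normoxic libraries were the shallowest. A peak 11873 bp beyond the gene was listed in 1 of 2 libraries at 21% O2, in both at 1% O2 and in neither at <0.1% O2, with raw pileups of 25 to 49. A peak at the promoter of *Tnfrsf13c* was listed in 0, 2 and 1 libraries, with raw pileups of 36 to 45. A peak upstream of *Scd1*, at *AC151478.3*, was missing from 21% O2 replicate 2.

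Counted per library, the 8 windows held 25 and 21 peaks at 21% O2, 29 and 27 at 1% O2, then 28 and 23 at <0.1% O2. Per 10000 listed peaks they were 7.57 and 5.80 at 21% O2, 6.77 and 6.46 at 1% O2, then 6.43 and 5.85 at <0.1% O2. The 21% O2 libraries overlapped with both hypoxic conditions, while both 1% O2 values were above both at <0.1% O2. *Sqle*, *Cyp51*, *Insig1* and *Insig2* had no peak other than the promoter peak in any library, apart from a second *Sqle* peak in 21% O2 replicate 1.

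**Figure D3:**
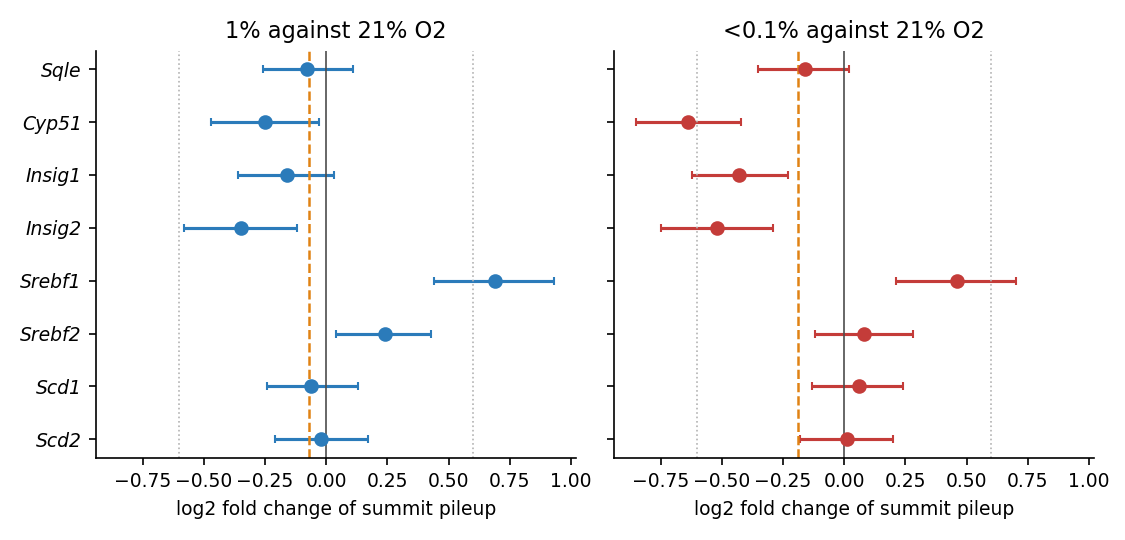
Log2 fold change of the scaled summit pileup of each promoter peak against 21% O2, at 1% O2 (left) and <0.1% O2 (right), with 95% limma intervals. Dotted lines mark the size of a call, 0.6 either way, and the dashed orange line the median of all promoter peaks. *Srebf1* lies above the median in both panels, and *Cyp51* and the INSIG genes below it at <0.1% O2.

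The same promoters were followed by the percentile rank of the authors' fold among the 28432 peaks. A rank was called changed when both libraries of one condition lay beyond both of the other and the mean moved by at least 10 points. At 1% O2 this called 1 of 8 lower, *Insig2*, against 16.5% of promoter peaks, and 1 higher, *Srebf1*, against 11.9%. At <0.1% O2 it called 2 lower, *Cyp51* and *Insig2*, against 26.5%, and 0 higher, against 12.0%. Between <0.1% and 1% O2 it called 1 lower, *Cyp51*, against 20.5%, and 0 higher, against 9.14%, and the *Cyp51* change of -10.1 points was just past the limit. The *Insig2* ranks were 87.4 and 92.0 at 21% O2, 77.7 and 77.1 at 1% O2, then 73.8 and 76.9 at <0.1% O2. *Cyp51* ranked at 99.6 and 97.4, then 97.3 and 93.6, then 86.1 and 84.6. *Srebf1* ranked at 35.3 and 45.2, then 54.2 and 52.5, then 43.5 and 60.8, so its <0.1% O2 libraries overlapped with both other conditions.

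For *Insig1* the conditions separated by pileup and overlapped by fold. Its pileup rank went from 97.9 and 98.1 at 21% O2 to 94.1 and 95.2 at <0.1% O2, while its fold rank was 57.9 and 53.1 at 21% O2 and 53.9 and 64.6 at <0.1% O2. The local background of *Insig1* was 12.5 and 15.7 times the genome coverage at 21% O2, 14.0 and 11.1 times at 1% O2, then 8.91 and 8.11 times at <0.1% O2. *Sqle*, *Scd1* and *Scd2* stood on backgrounds between 9.68 and 16.8 times the genome coverage, and of these *Scd1* and *Scd2* ranked far lower by fold than by pileup, as the plot of ranks shows.

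**Figure D4:**
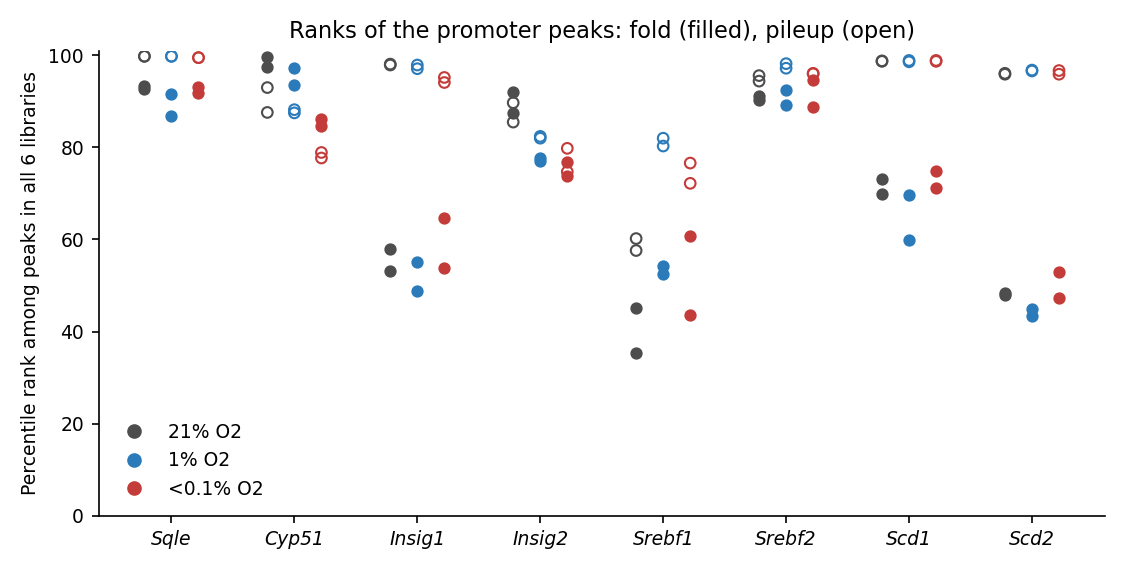
Percentile rank of each promoter peak among the peaks found in all 6 libraries, by fold over local background (filled points) and by summit pileup (open points), for each library at 21% O2 (grey), 1% O2 (blue) and <0.1% O2 (red). *Insig1*, *Scd1* and *Scd2* rank near the top by pileup and lower by fold, and *Cyp51* and *Insig2* fall by both.

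The 300 bp windows around the 8 promoter summits were searched for the motifs on both strands. No window held TCACNCCAC, which 1.14% of 12959 promoter windows did. GCGTG stood in 5 of 8 windows (*Sqle*, *Cyp51*, *Insig1*, *Insig2* and *Srebf1*), against 52.5% of all promoter windows, and ACGTG in 2 (*Insig1* and *Srebf1*), against 25.7%. The E-box was in the *Insig1* window alone, where it also counts as ACGTG, against 9.96% of promoter windows. CCAAT was in 6 of 8, lacking at *Insig2* and *Srebf1*, against 37.9%, and the GC box in all 8, against 63.1%. These are matches of letters within the windows, and a factor may bind outside them or to other letters.

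Other genes of sterol and fatty acid metabolism were taken from 3 lists with 55 genes, of which 47 had a promoter peak in all 6 libraries. At 1% O2 limma called 0 of the 47 in either direction, where 7.29% of all promoter peaks were called lower and 3.92% higher, and 20 had an unadjusted p under 0.05, against 44.0%. Without the minimum size 7 of 47 were lower, against 22.0%, and 10 higher, against 12.9%. At <0.1% O2 4 of 47 were called lower, against 19.5%, and 1 higher, against 4.53%. There 29 had an unadjusted p under 0.05, against 58.4%, and without the minimum size 16 were lower, against 38.5%, and 8 higher, against 13.8%. The median log2 fold change was 0.08 and -0.12, beside -0.07 and -0.19 over all promoter peaks. Of 19 sterol synthesis genes, *Lbr*, a sterol reductase of the inner nuclear membrane, fell from 339 ± 11.7 (SD, n = 2) to 188 ± 20.3 at <0.1% O2 (log2 fold change -0.85 ± 0.10, adjusted p = 2.1e-08, limma). *Fdps*, which makes farnesyl diphosphate, rose from 153 ± 6.56 to 247 ± 13.2 (0.69 ± 0.11, adjusted p = 2.6e-06, limma). These 2 peaks also cover starts of *Gm26004* and *Gm43738*.

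Among the 14 tested genes of sterol sensing and transport, *Rnf139*, a ubiquitin ligase of the endoplasmic reticulum whose peak also covers *Gm49356*, fell from 355 ± 12.2 to 203 ± 27.6 at <0.1% O2 (-0.81 ± 0.10, adjusted p = 7e-08, limma). Of 14 tested fatty acid genes, *Degs1*, the dihydroceramide desaturase, fell from 186 ± 38.0 to 120 ± 5.06 at <0.1% O2 (-0.62 ± 0.12, adjusted p = 9.4e-05, limma). The desaturase genes *Scd3*, at 0.13 (adjusted p = 0.37, limma), and *Scd4*, at -0.22 (adjusted p = 0.37, limma), passed no test at <0.1% O2.

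**Figure D5:**
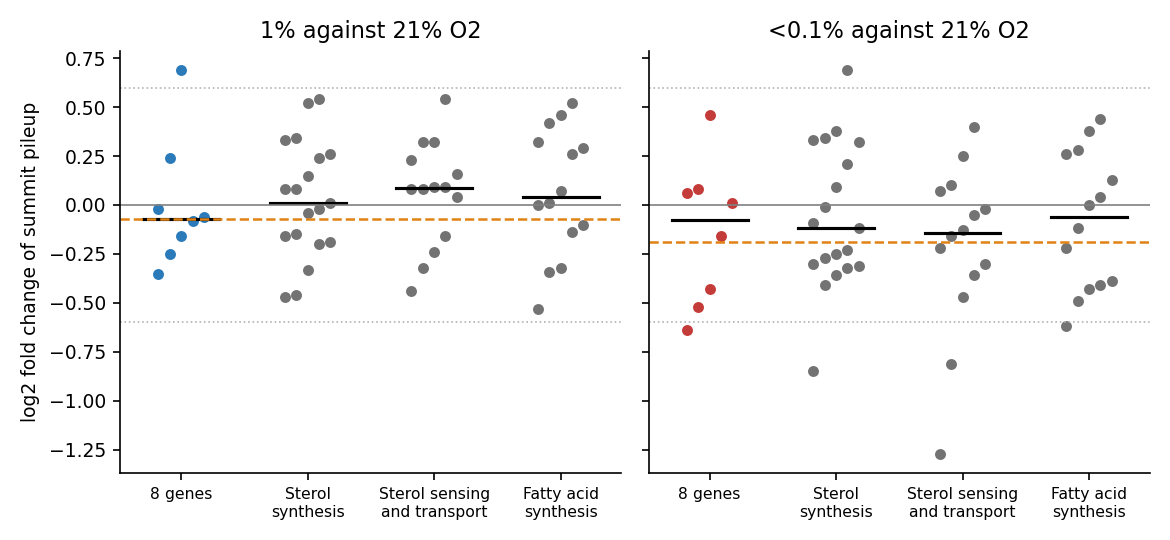
Log2 fold change of the promoter pileup at 1% O2 (left) and <0.1% O2 (right) against 21% O2 for the 8 genes and the genes of 3 pathway lists, 1 point per gene. Black bars are medians, dotted lines the size of a call and the dashed orange line the median of all promoter peaks. At 1% O2 *Srebf1*, at 0.69, is the one point beyond a dotted line.

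Likeness between genes was measured as the Euclidean distance between their 6 log2 pileups, each centred on its own mean. Among the 47 list genes, *Degs1* was nearest to *Cyp51*, at 0.21, *Elovl1* to *Insig2*, at 0.18, *Lss* to *Srebf1*, at 0.19, *Hsd17b7* to *Sqle*, at 0.13, and *Npc2* to *Scd1* and *Scd2*, at 0.17 and 0.13. Among the 8 genes themselves *Scd1* and *Scd2* were nearest to each other, at 0.12, as were *Insig1* and *Insig2*, at 0.23, whereas *Srebf1* was 0.50 from its nearest, *Srebf2*. The distances rest on 6 libraries that share their scaling and carry no test.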

How the data were processed

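ATACseq peak lists of 6 GL261 libraries were used. The authors aligned reads with Bowtie2 2.2.5 to mm10 and ran MACS2 2.1.1.2 on each library by itself. The deposited values are fold enrichment over local background (a ratio), -log10 p-value and -log10 q-value. From fold and p-value the whole-number summit pileup was recovered for 100% of peaks. Stretches over 200 bp shared by both replicates were merged over conditions. Log2 pileups, with medians equalised, were fitted with limma 3.58.1 (trended variance, R 4.3.3) on the 28432 peaks found in all libraries, with Benjamini-Hochberg adjustment. The fit was tested on simulated data. The read-count test of the study needs read counts and was not used here.

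Named are all 8 genes with their promoter peaks, other window peaks that limma called or that were present in both libraries of one condition and neither of another, up to 3 called genes each way per list, and for each of the 8 the nearest list gene. The single results of some list genes are not reported here, though the counts include them. The members, lists and tests were chosen with earlier results of these data known. Start sites came from GENCODE M21 and sequence from RefSeq GRCm38.p6, which no peak exceeded. Alternatives covered scaling, fitted value, pseudocount, overlap, q threshold, presence, promoter and window size, replicate block, GC trend and each library left out. Scripts ran under Python 3.11.15 with pandas 2.3.3, numpy 2.4.6, pysam 0.24.0 and scipy 1.17.1.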

Additional observations from a re-analysis of the deposited data

Results flagged for a closer look

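Differences between the hypoxic conditions were called for 2 peaks. The internal *Srebf1* start was lower at <0.1% than at 1% O2 by -0.77 on the log2 scale (adjusted p = 2.7e-05, limma), in both libraries. This was -0.54 after a GC trend was subtracted and -0.17 with fold fitted, neither called. The peak 15756 bp beyond *Srebf2* was lower by -0.91 (adjusted p = 0.00031, limma), in both libraries. This was -0.64 without 1% O2 replicate 1 and -0.44 with fold fitted, neither called. With 2 libraries per condition no single library could be tested for standing apart.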

How the results depend on the processing

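Summit pileups carry no interval of their own, absence from a list depends on depth, and 2 libraries per condition limit every test. Of 528 single-peak values under alternatives, 466 kept their direction and side of the threshold, 24 lost and 4 gained a call and 34 changed sign, most of them near 0. The cause was not tested.

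Promoter peaks called lower by limma at <0.1% O2, 1 as reported, were 2 with genome coverage scaling and 0 with quantile normalization, with fold fitted and after the GC trend was subtracted, alone or with the replicate block. Without the minimum size they were 3, with 1 higher, and at 1% O2 1 was then lower and between the hypoxic conditions 2 were lower. Those higher at 1% O2, 1 as reported, were 0 with fold fitted and 2 with the start sites of all transcripts, an alternative chosen after seeing the data, which also gave 1 lower between the hypoxic conditions. Coverage scaling gave 1 lower there, and it moved the median of all peaks from -0.03 to 0.13 at 1% O2 and from 0.00 to -0.16 at <0.1% O2. Leaving out single libraries gave 1 to 2 lower at <0.1% O2. Without 21% O2 replicate 1 the 1 called was *Insig2* (-0.66), not *Cyp51* (-0.52), and without <0.1% O2 replicate 2 *Insig2* (-0.62) was called beside *Cyp51*.

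By fold rank, 1 promoter was lower at 1% O2, but 0 when pileup or -log10 q was ranked or the rank was taken within the whole list, and 2 with a limit of 5 points. The 1 higher there became 3 with all transcripts. At <0.1% O2 the 2 lower became 0 within the whole list, and the 0 higher became 1 with pileup or -log10 q ranked or within the whole list and 2 with all transcripts. Between the hypoxic conditions the 1 lower became 0 in those 3 rankings and 2 with all transcripts, and the 0 higher became 2 with 5 points. Leaving out libraries gave 0 to 2 lower and 0 to 1 higher at 1% O2, 0 to 1 higher at <0.1% O2, and 0 to 1 lower and 0 to 2 higher between the hypoxic conditions. Mean window counts of 23, 28 and 25.5 at 21%, 1% and <0.1% O2 were 14.5, 16 and 15.5 with windows of 5 kb and 38, 50 and 46.5 with 50 kb.

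Signs turned as follows. With coverage scaling the 1% O2 change was 0.09 for *Sqle*, 0.11 for *Scd1* and 0.15 for *Scd2*, the <0.1% O2 change was -0.09 for *Srebf2*, -0.11 for *Scd1* and -0.15 for *Scd2*, and between the hypoxic conditions the *Srebf2* 3′ peak was -0.11 and the *Scd1* downstream peak -0.18. With quantile normalization *Sqle* was 0.02 and *Scd2* 0.08 at 1% O2, and the internal *Srebf1* start 0.01 at <0.1% O2. With fold fitted *Srebf2* was -0.01 and its 3′ peak -0.05 at 1% O2, *Insig1* 0.05 and the internal *Srebf1* start 0.24 at <0.1% O2, and *Insig1* 0.10 and *Srebf2* 0.05 between the hypoxic conditions. With a pseudocount of 5 *Scd2* was 0.01 at 1% O2. After the GC trend was subtracted, with or without the replicate block, *Sqle* was 0.16, *Scd2* -0.04 and the internal *Srebf1* start 0.25 at <0.1% O2, and *Insig2* 0.01 and *Srebf2* 0.09 between the hypoxic conditions. Leaving out libraries gave -0.18 to 0.02 for *Sqle*, -0.05 to 0.02 for *Scd2* and -0.03 to 0.53 for the peak 15756 bp beyond *Srebf2* at 1% O2, and -0.03 to 0.18 for *Srebf2* and -0.03 to 0.05 for *Scd2* at <0.1% O2.

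Replicate numbers did not pair the libraries, with correlations of their deviations of -0.0506, -0.013 and 0.00786 between conditions. The replicate block left the limma counts at 1 lower at <0.1% O2 and 1 higher at 1% O2.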
